A study of Homo sapiens with 24 samples.

Results

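The genes described here are hepatic leukaemia factor (HLF) and 9 genes that work with it in the output of the circadian clock, namely DBP, TEF, NFIL3, BHLHE40, BHLHE41, PER1, PER2, NR1D1 and NR1D2. They were found by the RefSeq accession that the scanner files give for each probe, and they made up 10 of 22439 genes named in this way and 13 of 58201 probes. HLF was chosen by its strong fall with transforming growth factor beta (TGFβ) in SNU-449 cells, so its values in that comparison are a description and carry no test. The data were 24 single-colour Agilent arrays of PLC/PRF/5 and SNU-449, a pair of established human hepatocellular carcinoma (HCC) lines that each stand for 1 tumour. Each line had 4 groups of 3 independent cultures, all grown without serum overnight before treatment. The groups were untreated control cells, cells given TGFβ1 at 1 ng/mL, cells given the TGFβ receptor kinase inhibitor galunisertib (LY2157299) at 10 µM, and cells given both, each for 16 h. The design asks how either agent, alone or with the other, changed these genes in each line, and how the untreated lines differed.

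HLF, DBP and TEF are the PAR bZIP transcription factors, which bind a short palindrome called the D-box and activate genes of hepatic detoxification and metabolism. NFIL3 binds the same sites as a repressor. The clock itself is driven by CLOCK and BMAL1, which activate through the E-box. Transcription of the PAR bZIP genes, PER1, PER2, BHLHE40, BHLHE41, NR1D1 and NR1D2 is driven by CLOCK and BMAL1, whereas the PER and BHLHE proteins act back on CLOCK and BMAL1, and the nuclear receptors NR1D1 and NR1D2 (REV-ERBα and β) repress BMAL1 and NFIL3. In liver these factors give many metabolic genes their daily rhythm. All cultures were collected at a single time after treatment, so a level here holds no information on phase or amplitude, and nothing in the labels says when in a cycle the cells were.

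Every level below is the log2 of a probe's processed signal over the 75th percentile of its array. A level of 0 thus equals that percentile, and levels of different probes are not set against each other. The main probe of every one of the 10 genes was well above background on all 24 arrays. A second PER2 probe was well above background on 12 of 12 PLC/PRF/5 arrays and 5 of 12 SNU-449 arrays, and of 2 further NR1D2 probes, one was so on 12 SNU-449 and 5 PLC/PRF/5 arrays and the other on none. Over the arrays the 75th percentile ran from 145 to 262 intensity units, between 43.8% and 51.4% of spots were well above background, and 0 were saturated. The array of replicate 2 with galunisertib in SNU-449 stood apart for several of the genes and had the lowest of these shares, and results that rest on it are given with and without it. The lines differed in markers of cell type. In PLC/PRF/5, 10 of 10 hepatocyte markers were well above background on all arrays. In SNU-449, 4 of 10 were so on all arrays, and APOB, APOC3, TF and AHSG on none. Of 10 mesenchymal markers, 9 were well above background on all SNU-449 arrays and 5 on all PLC/PRF/5 arrays. COL1A1, COL1A2, TWIST1 and SNAI2 were so on none in PLC/PRF/5. Between untreated cells, all 10 markers of each list differed by more than 2-fold. The PLC/PRF/5 signal was higher for 9 hepatocyte markers and lower for 1. It was lower for 9 mesenchymal markers and higher for 1. Each group held the same place on all 3 slides, with TGFβ setting the row and line and galunisertib the column, so an effect of place on the slide cannot be told apart from TGFβ, galunisertib or line.

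The promoters of the genes that carry the findings are shown first, because the clock acts on them through short sequences. The RefSeq promoter table (GRCh38.p14) holds 14 windows for the 10 genes, each from 250 bases before to 50 bases after a start site. Both strands were searched for the E-box CACGTG, the D-boxes TTATGTAA and TTACGTAA, the cAMP response element TGACGTCA and AGGTCA, the element read by the REV-ERB and ROR receptors, and capitals mark the matches, none of which overlapped another. HLF (chr17:55264710-55265009, plus strand) is shown for its response to TGFβ and holds a cAMP response element that reaches the start site. PER2 (chr2:238288561-238288860, minus strand) is shown for its response in PLC/PRF/5 and holds the D-box TTACGTAA. BHLHE41 (chr12:26124988-26125287, minus strand), shown for its response to galunisertib, holds an E-box. NR1D2 (chr3:23945871-23946170, plus strand), shown for its difference between the lines, holds 2 E-boxes and, on the opposite strand, the D-box TTATGTAA.
HLF: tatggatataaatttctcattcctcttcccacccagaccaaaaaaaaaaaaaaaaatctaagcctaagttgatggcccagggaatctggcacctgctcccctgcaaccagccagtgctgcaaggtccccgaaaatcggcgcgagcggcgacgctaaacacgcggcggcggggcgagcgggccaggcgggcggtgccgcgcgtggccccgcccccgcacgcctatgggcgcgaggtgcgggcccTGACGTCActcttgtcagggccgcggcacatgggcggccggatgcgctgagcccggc
PER2: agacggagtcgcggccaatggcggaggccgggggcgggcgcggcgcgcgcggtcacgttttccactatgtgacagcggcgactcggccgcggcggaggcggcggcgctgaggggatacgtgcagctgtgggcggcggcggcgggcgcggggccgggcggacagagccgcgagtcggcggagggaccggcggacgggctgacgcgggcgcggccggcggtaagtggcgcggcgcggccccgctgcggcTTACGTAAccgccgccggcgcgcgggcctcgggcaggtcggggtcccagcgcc
BHLHE41: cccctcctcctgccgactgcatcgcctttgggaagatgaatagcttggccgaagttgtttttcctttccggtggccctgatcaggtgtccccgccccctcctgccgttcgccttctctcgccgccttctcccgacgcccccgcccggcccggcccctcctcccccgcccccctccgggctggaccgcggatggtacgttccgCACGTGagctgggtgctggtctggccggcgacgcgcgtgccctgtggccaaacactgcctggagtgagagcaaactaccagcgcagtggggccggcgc
NR1D2: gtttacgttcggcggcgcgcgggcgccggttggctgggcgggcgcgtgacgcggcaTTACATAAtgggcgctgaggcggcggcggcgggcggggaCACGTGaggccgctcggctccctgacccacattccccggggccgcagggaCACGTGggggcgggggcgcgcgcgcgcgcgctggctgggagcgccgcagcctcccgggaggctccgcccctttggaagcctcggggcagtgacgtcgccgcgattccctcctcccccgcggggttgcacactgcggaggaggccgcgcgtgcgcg
The E-box was found in 6 of the 14 windows, those of TEF (both windows), BHLHE40, BHLHE41, PER1 and NR1D2, against 7.26% of all 35116 promoters in the table. TTATGTAA was in 0.886% and TTACGTAA in 0.125% of all promoters, TGACGTCA in 1.85%, and AGGTCA in 13.8%, among them those of NFIL3 and PER1. The windows of these genes had a median GC content of 69.0%, against 58.7% over all promoters. A match says only that these letters are present.

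In SNU-449 cells HLF was measured at -0.50, -0.25 and -0.07 in the 3 control cultures and at -3.09, -3.12 and -2.84 with TGFβ. With galunisertib alone the levels were 1.08, 0.56 and 1.34, and with both agents 0.39, 0.31 and 0.50. The TGFβ cultures lay far below all others, and both galunisertib groups lay above the control cultures without overlap. The difference between TGFβ and control was -2.74 on the log2 scale, a 6.70-fold lower mean signal, and it was by this difference that HLF was chosen. Among all 16100 genes tested in SNU-449, 3.65% differed by more than 2-fold in this comparison. In RNA from whole cultures, fewer cells with the transcript and less transcript per cell cannot be told apart. HLF differed by 1.26 between galunisertib and control and by 3.42 between the combination and TGFβ alone, values that share arrays with the choice of HLF and are likewise given without a test. With another background correction (normexp, which adds an offset of 50 units), the difference between TGFβ and control was -1.60 and that between the combination and TGFβ 1.99. Without replicate 2 of galunisertib, the galunisertib difference was 1.48.

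A single comparison within SNU-449 set against each other only groups not used to choose HLF, namely the combination against galunisertib alone. Here HLF lay 0.59 lower (95% interval -1.01 to -0.17) and did not pass the threshold (limma, adjusted p = 0.151). The spread behind this test came from all 12 arrays of the line, among them those used to choose HLF. The 2 groups did not overlap. Without replicate 2 of galunisertib, the lowest of its group, the difference was -0.81 and passed (adjusted p = 0.0281), as it did with normexp (-0.62, adjusted p = 0.0444). The order of mean levels in SNU-449 was therefore galunisertib (0.99 ± 0.40, SD, n = 3), both agents (0.40 ± 0.09), control (-0.27 ± 0.22) and TGFβ (-3.02 ± 0.15). Only the first 2 of these groups were compared by a test, and over all arrays it did not separate them. The mesenchymal markers had a mean log2 level of 3.20 to 3.29 over their 10 genes with TGFβ, 2.80 to 2.97 in control cells, 2.65 to 2.84 with both agents and 2.53 to 2.70 with galunisertib. Single markers did not all follow these means. With TGFβ 7 lay higher than in control cells and 3 lower, 1 of them past 2-fold. With galunisertib alone 5 lay higher and 5 lower, and limma called 1 in each direction, against 7.47% of all genes. Galunisertib added to TGFβ raised 1 and lowered 4 of the markers (against 17.1%), and TGFβ added to galunisertib raised 1 (against 1.91%). Their part in the HLF values was not tested.

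**Figure D1:**
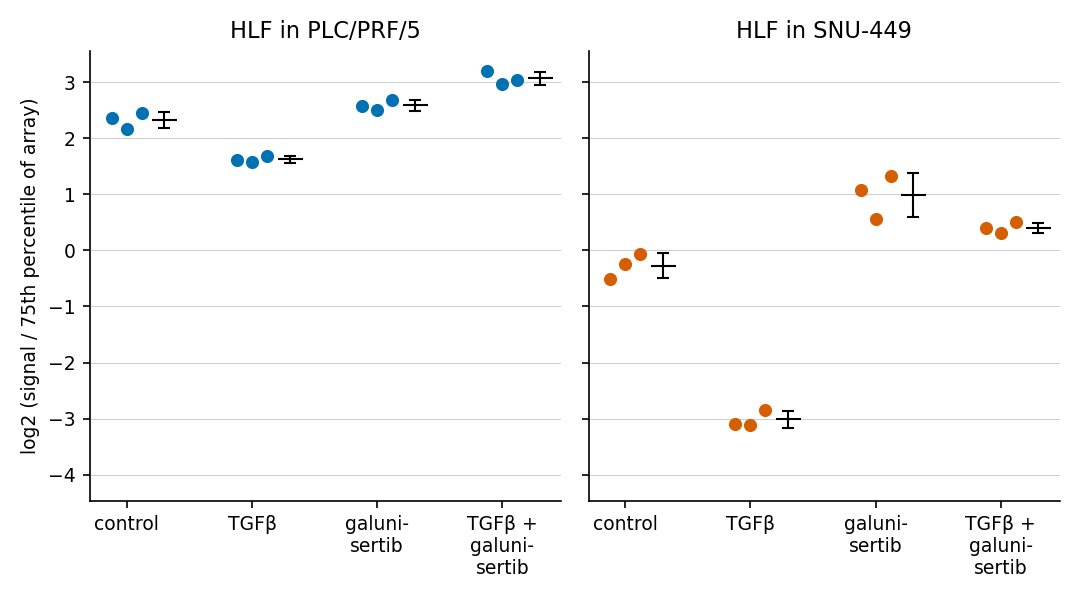
Level of HLF (vertical axis, log2 of signal over the 75th percentile of the array) in PLC/PRF/5 (left) and SNU-449 (right) under the 4 treatments, with 1 point per culture and the mean ± SD of 3 cultures beside the points. In both lines TGFβ gave the lowest values (1.57 to 1.69 and -3.12 to -2.84), and the highest came with both agents in PLC/PRF/5 and with galunisertib alone in SNU-449.

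In PLC/PRF/5 cells, whose arrays had no part in the choice of HLF, the control cultures measured 2.37, 2.17 and 2.46. TGFβ gave 1.62, 1.57 and 1.69, galunisertib 2.58, 2.50 and 2.68, and both agents 3.20, 2.98 and 3.04. None of the 4 groups overlapped another. HLF fell with TGFβ by 0.70 on the log2 scale (SE 0.09, 1.63-fold, limma, adjusted p = 0.000899). When galunisertib was added to TGFβ, HLF rose by 1.45 (SE 0.09, 2.72-fold, adjusted p = 3.21e-06), and it ended above the level with galunisertib alone by 0.49 (SE 0.09, adjusted p = 0.0184). Galunisertib alone gave a difference of 0.25 (95% interval 0.05 to 0.46) that did not pass (adjusted p = 0.134). Thus the order was both agents (3.07 ± 0.11), galunisertib (2.59 ± 0.09), control (2.33 ± 0.15) and TGFβ (1.63 ± 0.06), in which galunisertib and control were not separated.

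The fall with TGFβ in PLC/PRF/5 no longer passed when arrays were scaled to their median (-0.68, adjusted p = 0.0898) or not scaled (-0.45, adjusted p = 0.414), and the call of the combination against galunisertib was lost without replicate 1 of either group (0.48 and 0.42, adjusted p = 0.0591 and 0.0528). The mean level of the 10 hepatocyte markers was 3.81 to 3.97 in control PLC/PRF/5 cells, 3.38 to 3.72 with TGFβ, 3.34 to 3.51 with galunisertib and 3.48 to 3.88 with both. Of the 10, 4 fell with TGFβ, where 13.5% of all genes passed. With galunisertib alone all 10 lay lower and 2 passed, against 5.43% of all genes. Galunisertib added to TGFβ raised 3 and lowered 1 (against 39.1%), and TGFβ added to galunisertib raised 2 (against 8.56%). The mean level of these markers was thus lower with galunisertib than in control cells. Whether it bears on the HLF values was not tested. The TGFβ effect on HLF in SNU-449 minus that in PLC/PRF/5 was -2.04 (-0.87 with normexp), a difference that includes the comparison used to choose HLF and was not tested.

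Of the 10 genes, 2 changed with TGFβ in PLC/PRF/5 (both lower), where 13.5% of all 16682 genes tested passed the same threshold of an adjusted p under 0.05. Galunisertib alone changed 2 of the 10 in PLC/PRF/5 (both higher), against 5.43% of all genes. Galunisertib added to TGFβ changed 7 of the 10 in PLC/PRF/5, 4 higher and 3 lower, against 39.1% of all genes. TGFβ added to galunisertib changed 2 in this line, 1 in each direction, against 8.56%. These comparisons share arrays with each other and are not separate evidence. In SNU-449, galunisertib alone changed 1 of 9 genes tested (HLF left out), against 7.47% of all 16100 genes. Galunisertib added to TGFβ changed 3 of 9, 2 higher and 1 lower, against 17.1% of all genes, and TGFβ added to galunisertib changed 1 of 10, against 1.91%. The median of the tested members was 0.33 for galunisertib alone in SNU-449 and 0.14 in PLC/PRF/5, against 0.09 and 0.05 over all genes. With so few members, none of these shares sets the genes apart.

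**Figure D2:**
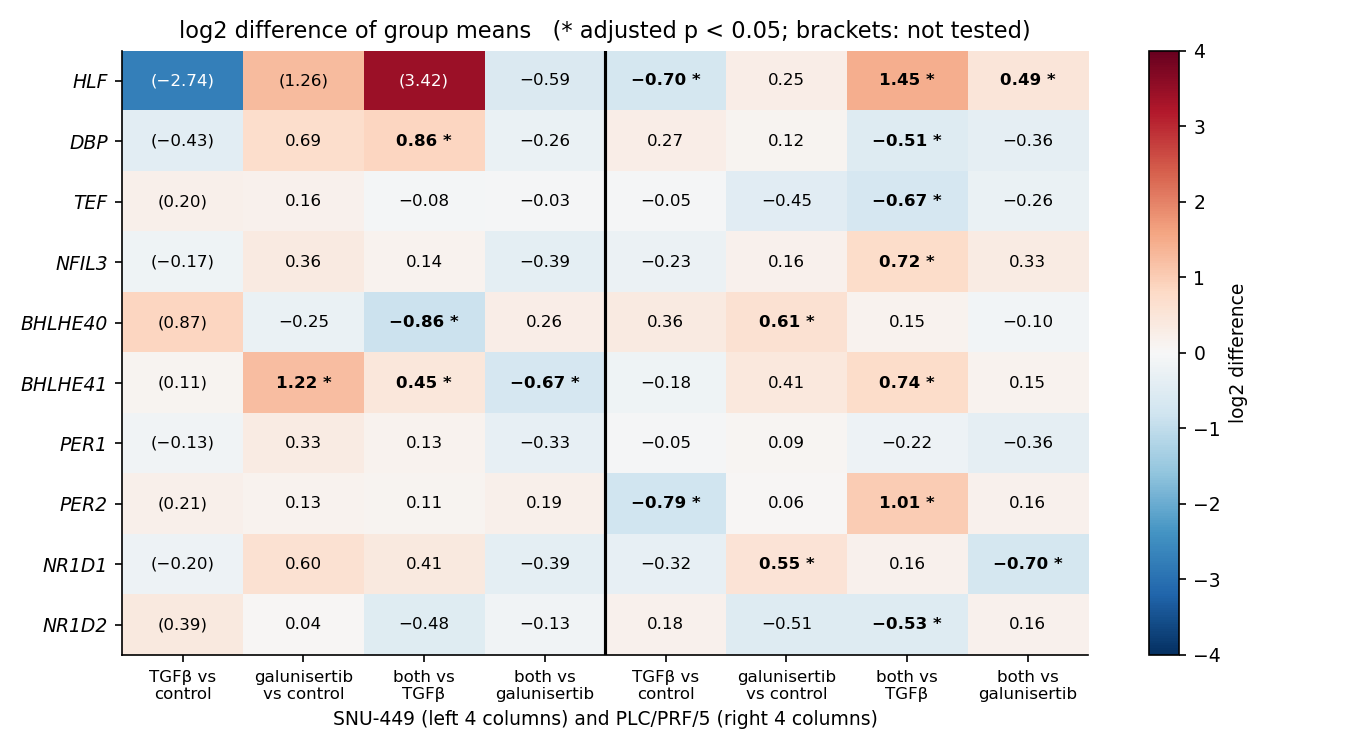
Difference of group means on the log2 scale (colour and printed value) for the 10 genes (rows) in 4 comparisons of SNU-449 (left 4 columns) and PLC/PRF/5 (right 4 columns). Asterisks mark adjusted p under 0.05 and brackets values given without a test. The largest differences are those of HLF (-2.74 and 3.42) in SNU-449, and the column with the most asterisks, 7, is both agents against TGFβ in PLC/PRF/5.

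DBP, the PAR bZIP activator with the strongest daily rhythm in liver, was measured in SNU-449 at -1.40, -1.71 and -1.64 in control cells and at -2.14, -1.86 and -2.04 with TGFβ. Galunisertib gave -0.46, -1.60 and -0.62, and both agents -1.25, -1.25 and -0.95. Replicate 2 of galunisertib lay among the control cultures, whereas its other 2 cultures lay above them. DBP rose by 0.86 when galunisertib was added to TGFβ (SE 0.25, adjusted p = 0.0406), a call that was lost without any 1 of the 6 arrays compared (adjusted p = 0.0754 to 0.123). The difference of 0.69 between galunisertib and control did not pass (adjusted p = 0.127), but without replicate 2 it was 1.04 and did (adjusted p = 0.00355). DBP moved the other way in PLC/PRF/5, from -0.59, -0.79 and -0.83 with TGFβ to -1.52, -1.19 and -1.05 with both agents. That fall of 0.51 passed (SE 0.16, adjusted p = 0.0239), but not without replicate 1 of either group (adjusted p = 0.0915 and 0.0947). This difference between the lines was not tested.

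TEF, the third PAR bZIP activator, changed in a single comparison. It went in PLC/PRF/5 from -2.23, -2.48 and -2.64 with TGFβ to -3.66, -2.90 and -2.80 with both agents, a fall of 0.67 (SE 0.23, adjusted p = 0.0368). The value of -3.66 lay far below the rest, and without that culture the fall was 0.40 and did not pass (adjusted p = 0.124). Nor did it pass without replicate 1 or 2 of TGFβ (adjusted p = 0.131 and 0.0759), or with the replicate number as a block (adjusted p = 0.0571). In SNU-449 TEF lay between -2.85 and -2.12 on all 12 arrays, the groups overlapped in all 4 comparisons, and none of the 3 that were tested passed.

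NFIL3, the repressor that competes at D-boxes, was measured in PLC/PRF/5 at 3.68, 3.85 and 3.92 in control cells, 3.60, 3.56 and 3.61 with TGFβ, 4.01, 3.67 and 4.25 with galunisertib and 4.49, 4.21 and 4.22 with both. All 3 cultures with both agents lay above those with TGFβ, and NFIL3 rose by 0.72 between them (SE 0.14, 1.65-fold, adjusted p = 0.0022). The difference between TGFβ and control was -0.23 (95% interval -0.53 to 0.08, adjusted p = 0.323). TGFβ added to galunisertib gave 0.33, which did not pass (adjusted p = 0.137) unless replicate 3 of galunisertib was left out (0.47, adjusted p = 0.0475) or normexp was used (0.46, adjusted p = 0.0408). In SNU-449 no tested comparison passed. The difference of 0.36 with galunisertib alone (adjusted p = 0.0703) passed without replicate 2 (0.44, adjusted p = 0.036) or with the floor doubled (adjusted p = 0.0452).

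BHLHE40 (DEC1) and BHLHE41 (DEC2) are related E-box repressors. In SNU-449 BHLHE40 was measured at 0.55, 1.01 and 1.01 in control cells and at 1.73, 1.74 and 1.72 with TGFβ, a difference of 0.87 without overlap that is given without a test. Galunisertib gave 0.69, 0.38 and 0.74, and both agents 0.94, 0.87 and 0.79. All 3 TGFβ cultures lay above every other SNU-449 culture. BHLHE40 fell by 0.86 when galunisertib was added to TGFβ (SE 0.14, 1.82-fold, adjusted p = 0.00164). That result passed with every array left out in turn (-0.90 to -0.83). The PLC/PRF/5 control cultures measured 1.02, 1.09 and 1.35, those with galunisertib 1.75, 1.66 and 1.90, those with TGFβ 1.37, 1.61 and 1.56 and those with both 1.62, 1.77 and 1.60. Here galunisertib alone raised BHLHE40 by 0.61 (SE 0.11, 1.53-fold, adjusted p = 0.0116), and the call was lost without replicate 2 of the control (0.58, adjusted p = 0.0537). The difference of 0.36 with TGFβ missed the threshold (adjusted p = 0.0504) and passed without replicate 3 of the control (0.46, adjusted p = 0.0222) and under 5 other processing settings (adjusted p = 0.0308 to 0.0487).

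BHLHE41 in SNU-449 was measured at -1.12, -1.35 and -1.16 in control cells and at -1.15, -1.23 and -0.92 with TGFβ. Galunisertib gave 0.14, -0.09 and -0.01, and both agents -0.77, -0.76 and -0.42. Control and TGFβ cultures overlapped, those with both agents lay above them and those with galunisertib alone above all. BHLHE41 rose by 1.22 with galunisertib (SE 0.13, 2.33-fold, adjusted p = 0.000608), and this passed with every array left out in turn. TGFβ added to galunisertib lowered it by 0.67 (SE 0.13, adjusted p = 0.0298), and galunisertib added to TGFβ raised it by 0.45 (SE 0.13, adjusted p = 0.0357). Both of these smaller changes were lost without single arrays: the first without replicate 1 or 3 of galunisertib or replicate 1 or 2 of both agents (adjusted p = 0.0598 to 0.0979), the second without replicate 1 or 2 of TGFβ or replicate 3 of both agents (0.103 to 0.137). BHLHE41 in PLC/PRF/5 measured -2.03, -2.47 and -2.65 with TGFβ and -1.55, -1.69 and -1.67 with both agents, a rise of 0.74 (SE 0.15, adjusted p = 0.00332). Galunisertib alone gave a difference of 0.41 there (95% interval 0.07 to 0.75, adjusted p = 0.138).

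The galunisertib effect was compared directly between the lines for 9 of the genes, HLF being left out. It differed for 2 of them, both BHLHE genes, against 5.87% of all 17900 genes tested. For BHLHE40 the effect in SNU-449 (-0.25) was 0.87 below that in PLC/PRF/5 (SE 0.17, adjusted p = 0.00493). For BHLHE41 the effect in SNU-449 was 0.81 above that in PLC/PRF/5 (SE 0.20, adjusted p = 0.0219). Neither passed with arrays scaled to their median (adjusted p = 0.181 and 0.385) or without scaling. The BHLHE41 call was also lost without replicate 2 or 3 of the PLC/PRF/5 control, replicate 1 of PLC/PRF/5 galunisertib or replicate 2 of the SNU-449 control (0.74 to 0.77, adjusted p = 0.0522 to 0.063). For DBP the difference of 0.57 did not pass (adjusted p = 0.338), and without replicate 2 of SNU-449 galunisertib it was 0.93 and passed (adjusted p = 0.0135).

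PER2, a repressor at the centre of the clock, fell with TGFβ in PLC/PRF/5, as HLF did. In control cells of this line it was measured at 0.71, 0.61 and 0.50, and with TGFβ at -0.23, -0.10 and -0.21. Galunisertib gave 0.83, 0.64 and 0.53, and both agents 1.06, 0.71 and 0.71. The TGFβ cultures lay below all others, and the other 3 groups overlapped. PER2 fell by 0.79 with TGFβ (SE 0.11, 1.72-fold, adjusted p = 0.00153) and rose by 1.01 when galunisertib was added to TGFβ (SE 0.11, 2.01-fold, adjusted p = 1e-04). Galunisertib alone gave a difference of 0.06 (95% interval -0.19 to 0.31). The second PER2 probe differed by -0.83 and 0.49 in the same comparisons. Without scaling between arrays the fall with TGFβ did not pass (-0.53, adjusted p = 0.311). In SNU-449 all 12 arrays lay between -1.67 and -0.93, the difference between TGFβ and control was 0.21, and none of the 3 comparisons tested passed.

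PER1, the other PER gene of the list, passed in none of the treatment comparisons tested. Its levels in PLC/PRF/5 ran from -0.05 to 0.53 and in SNU-449 from -1.34 to -0.58. The PLC/PRF/5 cultures with both agents (-0.05, 0.16 and 0.26) lay below those with galunisertib (0.48, 0.44 and 0.53), and the difference of -0.36 missed the threshold (adjusted p = 0.0508). It passed with the floor doubled or with probes kept only where all arrays were well above background (adjusted p = 0.0402 and 0.0413). When only probes detected on every array set the percentile, that difference (-0.42, adjusted p = 0.0379) and the one between both agents and TGFβ (-0.39, against -0.22 otherwise, adjusted p = 0.018) both passed.

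NR1D1 and NR1D2, the REV-ERB receptors, passed in few comparisons. NR1D1 in PLC/PRF/5 measured -2.78, -2.53 and -2.96 in control cells, -2.12, -2.26 and -2.26 with galunisertib and -3.05, -2.88 and -2.82 with both agents. It was higher with galunisertib than in control cells by 0.55 (SE 0.14, adjusted p = 0.0446) and lower with both agents than with galunisertib by 0.70 (SE 0.14, adjusted p = 0.0184). The first call was lost without any of 5 of the 6 arrays (all but control replicate 2) and the second without replicate 1 of either group, and with normexp the differences were 0.23 and -0.30 and did not pass. In SNU-449 galunisertib gave NR1D1 levels of -1.89, -1.91 and -1.84, above all control values (-2.27, -2.35 and -2.80), yet the difference of 0.60 did not pass (95% interval 0.19 to 1.00, adjusted p = 0.0764). NR1D2 fell by 0.53 in PLC/PRF/5 when galunisertib was added to TGFβ (SE 0.18, adjusted p = 0.0402), from -1.94, -2.01 and -2.12 to -2.93, -2.14 and -2.59. This call was lost without any of 5 of the 6 arrays (all but replicate 2 of both agents), down to -0.34 without replicate 1 of both agents. A further NR1D2 probe, well above background on only 5 PLC/PRF/5 arrays, differed the other way there, by 0.15. In SNU-449 the main NR1D2 probe differed by 0.39 and this further probe by 0.59 between TGFβ and control, both without a test. Galunisertib added to TGFβ gave -0.48 (adjusted p = 0.233), which passed with all probes of the gene averaged (-0.54, adjusted p = 0.0437).

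**Figure D3:**
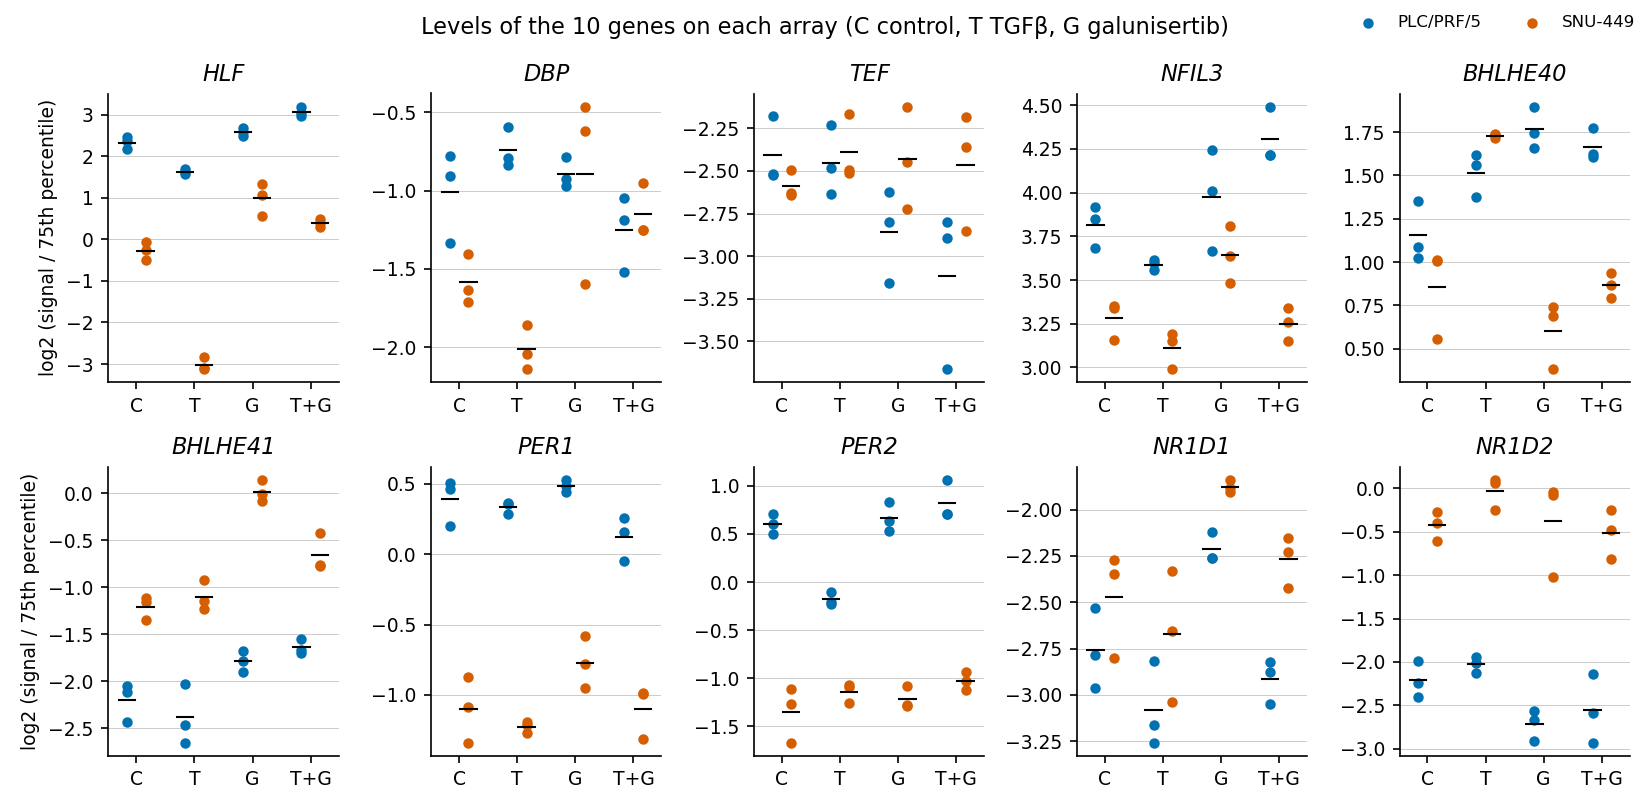
Level of each of the 10 genes (vertical axes, log2 of signal over the 75th percentile, with a scale of its own for each gene) under control (C), TGFβ (T), galunisertib (G) and both (T+G), with 1 point per culture, blue for PLC/PRF/5 and orange for SNU-449, and a line at each mean of 3 cultures. HLF and PER2 are lowest with TGFβ in PLC/PRF/5, BHLHE41 is highest with galunisertib in SNU-449 (-0.09 to 0.14), and 1 galunisertib culture of SNU-449 lies apart for DBP (-1.60) and NR1D2 (-1.02).

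Between the untreated lines, 7 of 9 genes tested differed (limma over all 24 arrays, HLF left out), 5 higher and 2 lower in PLC/PRF/5, in a comparison in which 68.5% of all 17900 genes passed. The mean of HLF was 2.60 higher in PLC/PRF/5 (6.07-fold), a value that shares the SNU-449 control arrays with the choice of HLF and is given without a test. PER2 was higher by 1.95 (3.87-fold, adjusted p = 4.53e-11) and PER1 by 1.49 (2.81-fold, adjusted p = 1.7e-09), with no overlap between the lines. Both PER genes thus stood higher in the line with the hepatocyte markers. NR1D2 went the other way and was lower in PLC/PRF/5 by 1.78 (3.44-fold, adjusted p = 9.04e-07), as was BHLHE41 by 0.99 (1.99-fold, adjusted p = 4.71e-06). A further NR1D2 probe differed by -1.87, though its PLC/PRF/5 control values lay at or near the floor. NFIL3 (0.53, adjusted p = 0.000859), DBP (0.57, adjusted p = 0.0255) and BHLHE40 (0.30, adjusted p = 0.0398) were higher in PLC/PRF/5 by smaller amounts. With arrays scaled to their median, which moved the median of all genes from 0.06 to -0.28, NFIL3 (0.16) and DBP (0.20) did not pass, and BHLHE40 lay at -0.074. DBP also lost its call without replicate 1 or 3 of the PLC/PRF/5 control or replicate 2 or 3 of the SNU-449 control (adjusted p = 0.0636 to 0.104), and BHLHE40 without replicate 3 of the former or replicate 1 of the latter (0.191 and 0.284). NR1D1 (-0.29, adjusted p = 0.133) and TEF (0.18, adjusted p = 0.474) did not pass, and without replicate 3 of the SNU-449 control NR1D1 did (-0.45, adjusted p = 0.0263), as with median scaling (-0.66, adjusted p = 0.00232).

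**Figure D4:**
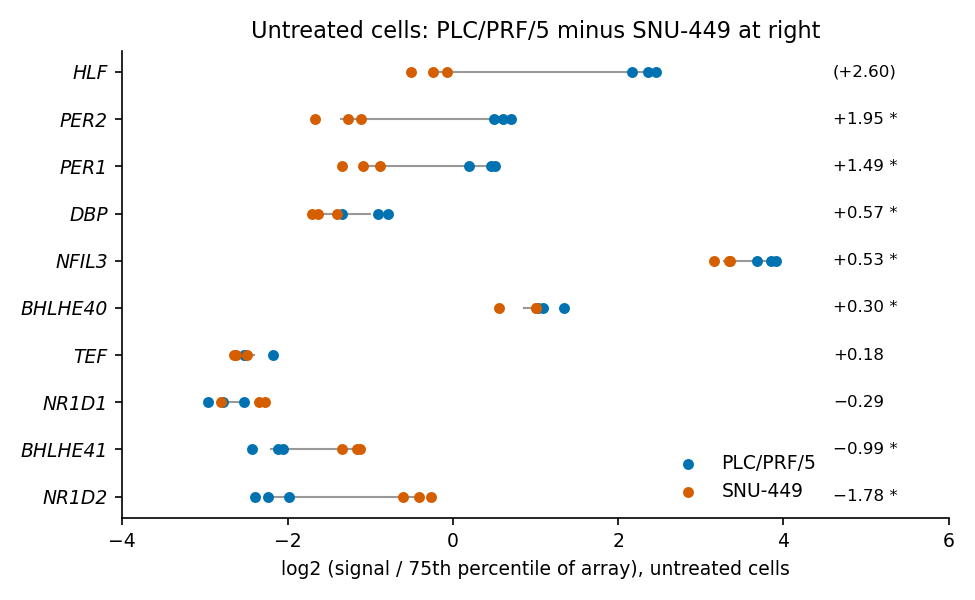
Level of the 10 genes in the 3 untreated cultures of PLC/PRF/5 (blue) and SNU-449 (orange) on the horizontal axis (log2 of signal over the 75th percentile), with genes as rows and a line joining the group means. The difference, PLC/PRF/5 minus SNU-449, is printed at right with an asterisk where the adjusted p was under 0.05 and in brackets where it was not tested (HLF), and it runs from 2.60 for HLF to -1.78 for NR1D2.

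Of 18 other clock genes listed, 17 had a probe (CSNK1E was not analysed here), and 14 were tested in SNU-449 and 13 in PLC/PRF/5. In SNU-449 galunisertib alone lowered 1 of the 14 and raised none (7.47% of all genes were called), and galunisertib added to TGFβ lowered 2 and raised none (17.1%). BMAL1, the partner of CLOCK, fell by 0.66 in the latter comparison (adjusted p = 0.00229), and it had differed by 0.73 between TGFβ and control. USP2, a clock-controlled ubiquitin protease, was at least 1.85-fold lower with galunisertib and at least 3.74-fold lower with both agents than with TGFβ. When TGFβ was added to galunisertib in SNU-449, limma called 0 listed clock genes (2 at an unadjusted p under 0.05). TGFβ in PLC/PRF/5 lowered 2 of the 13 (against 13.5% of all genes), PER3 by 0.80 and the nuclear receptor RORB by 1.42. Galunisertib alone changed 1 (against 5.43%), raising NPAS2, a CLOCK paralogue, by 0.74. Galunisertib added to TGFβ changed 4 (against 39.1%): it raised NPAS2 by 0.98, RORB by 0.76 and CLOCK by 0.29 and lowered USP2 by 0.73. TGFβ added to galunisertib changed 2 (against 8.56%), lowering RORB by 0.86 and the kinase gene CSNK1D by 0.34. The list's median for galunisertib added to TGFβ was 0.26 in PLC/PRF/5 and -0.12 in SNU-449, against 0.06 and 0.01 over all genes.

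Between untreated lines, 10 of 15 other clock genes differed, 4 higher and 6 lower in PLC/PRF/5, against 68.5% of all genes. The NPAS2 signal of PLC/PRF/5 was at least 29.7-fold higher, and that of CIART, a repressor of CLOCK and BMAL1, at least 9.13-fold lower. These bounds take the weakest signal well above background in place of a probe that was not above it. CRY2, a repressor of CLOCK and BMAL1, was higher by 1.28. RORB (1.30) and CSNK1D (0.56) were higher in PLC/PRF/5 too, and CIPC (-1.45), TIMELESS (-0.78), PER3 (-0.65) and BMAL2 (-0.63) lower. Among liver genes known to lie under PAR bZIP control, 8 of 10 had a probe (POR and CYP2A6 were not analysed here) and 5 were tested. With galunisertib alone limma called 0 of the 5 in either line (2 in SNU-449 and 1 in PLC/PRF/5 at an unadjusted p under 0.05). Over all genes the shares called were 7.47% in SNU-449 and 5.43% in PLC/PRF/5. TGFβ in PLC/PRF/5 changed 1 of the 5 (against 13.5% of all genes), raising PDXK, which activates vitamin B6, by 0.85 (limma, adjusted p = 0.000303). Galunisertib added to TGFβ there changed 2 (against 39.1%). It lowered PDXK by 0.89 and PPARA, a receptor of fatty acid metabolism, by 0.38. In SNU-449 the same comparison changed 1 (against 17.1%), lowering PDXK by 0.43. In untreated cells 3 of the 5 differed (against 68.5%). ALAS1, PDXK and PPARA were higher in PLC/PRF/5, by 1.19, 1.48 and 1.78. The treatment itself was read from SMAD7, SKIL and PMEPA1, which TGFβ is known to induce. All 3 fell with galunisertib alone in SNU-449 (differences of -3.50 to -1.90) and again when it was added to TGFβ (-2.12 to -1.16), and in PLC/PRF/5 all 3 rose with TGFβ and fell when galunisertib was added.

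The genes whose pattern over the 12 SNU-449 arrays was most like that of HLF were sought among 1960 genes whose group means spanned at least 1 on the log2 scale. The 5 with the highest Pearson correlation were the transporter gene SLC16A5 (r = 0.996), EFHB (0.993), SAMD12 (0.993), AMOTL2 (0.993) and the chemokine receptor gene CXCR4 (0.992). Those with the lowest were the histamine receptor gene HRH1 (-0.993), the protease gene FURIN (-0.990), CGB3 (-0.987), EFR3B (-0.987) and LHB (-0.986), of which CGB3 and LHB belong to a family of near-identical copies and are uncertain. These values describe 4 groups of 3 arrays in which the TGFβ arrays lie apart, so the arrays are not independent points, and they carry no test. SLC16A5 had means of 1.10 in control cells, -1.13 with TGFβ, 1.95 with galunisertib and 1.56 with both, the same order as HLF. Over the 12 PLC/PRF/5 arrays its correlation with HLF was 0.90, that of CXCR4 0.80, that of FURIN -0.91 and that of AMOTL2 -0.54, while EFHB and SAMD12 were well above background on none. Among the clock output genes, those with the strongest correlation to HLF in SNU-449 were BHLHE40 (-0.90) and DBP (0.83), and in PLC/PRF/5 PER2 (0.90) and NFIL3 (0.89). In the other line the values were 0.34 for BHLHE40, -0.64 for DBP, -0.05 for PER2 and 0.73 for NFIL3.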

How the data were processed

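For each of 24 arrays the authors deposited the scanner output of Agilent Feature Extraction 10.7.3.1 (per the submitters' processing notes), whose processed signal is an intensity after background subtraction, not normalized between arrays. The deposited series table of log2 values, processed in GeneSpring, was used as an alternative only. It matched differences between arrays here (r = 0.999 over 19258 probes, across probes, which are not independent replicates, slope 1.00), with each probe centred on its median. Groups and replicates were taken from the labels.

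Control and flagged spots were left out (111 to 216 flagged per array, 0 on probes of the 10 genes). Spots of a probe were averaged, divided by the 75th percentile of the array, raised to a floor of 5.70% of it (log2 -4.13, from the weakest signals well above background, by the median array) and converted to log2. A probe was tested where all arrays of any 1 group had it well above background, and a gene was represented by its brightest probe. Of 58201 probes, 31104 were named through RefSeq (GCF_000001405.40) and 10719 through LNCipedia. Where a gene was not above background in a group, the fold is a bound against the weakest signal well above background.

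limma 3.58.1 in R 4.3.3 was fitted over the 12 arrays of a line, or over all 24 between lines, with Benjamini-Hochberg adjustment over all genes and a threshold of 0.05. The p-values rest on the spread between the 3 independent cultures of each group, pooled over the groups of a fit and shared in part between genes. The steps were tested on simulated data with independent noise on each array. Those data held no slide effect and cannot show how the fit deals with one. The array number limits the precision. The normexp alternative used median spot signals, since the files analysed hold no mean signals. The members and lists were chosen with earlier results of these data known. The genes named are the 10 members, called genes of the lists (a few of which are not reported here) and the 5 most and 5 least like HLF. Same-numbered cultures deviated together (every pair's r over 0.1) in 3 comparisons, TGFβ against control in both lines and both agents against TGFβ in SNU-449 (0.106 to 0.262). The number is also the slide.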

Additional observations from a re-analysis of the deposited data

Results flagged for a closer look

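The change with galunisertib differed between the lines for both BHLHE genes. For BHLHE40 the effect in SNU-449 minus that in PLC/PRF/5 was -0.87 on the log2 scale. For BHLHE41 it was 0.81. Both come from the test of the difference itself over all 24 arrays. Neither passed with median scaling (adjusted p = 0.181 and 0.385) or without scaling (0.185 and 0.553), and BHLHE41 did not pass without any 1 of 4 arrays (0.0522 to 0.063).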

How the results depend on the processing

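Of 27 results of single genes that passed the threshold, 8 passed under every alternative run on single genes (the call by fold and unadjusted p was run on counts only), namely HLF and PER2 for the combination against TGFβ in PLC/PRF/5, BHLHE40 for the same in SNU-449, BHLHE41 for galunisertib alone in SNU-449, and PER2, PER1, NR1D2 and BHLHE41 between untreated lines. The other 19 did not, and 1 changed sign, BHLHE40 between untreated lines at -0.074 with median scaling. The counts of genes called moved by more than 1.5 times as follows. With median scaling they were 1 for the combination against TGFβ and 0 for the combination against galunisertib in SNU-449, 1 for TGFβ, 0 for galunisertib, 4 for the combination against TGFβ and 0 for the combination against galunisertib in PLC/PRF/5, and 0 for the difference of the galunisertib effects. Without scaling they were, in that order, 1, 0, 0, 0, 2, 0 and 0, and 4 between untreated lines. With a fold above 2 and an unadjusted p under 0.001 they were 0, 0, 0, 0, 2, 0 and 0, and 3 between untreated lines. A plain t-test was also run, without the random variance model that the study's methods name. With it they were 0 for the combination against galunisertib in both lines, where 0 of 16100 and 0 of 16682 genes passed. In PLC/PRF/5 they were 0 for galunisertib (160 of all genes) and 3 for the combination against TGFβ (5465 of all genes). Without a filter on dim probes they were 1 and 0 for the combination against TGFβ and the combination against galunisertib in SNU-449, and 1 and 4 for galunisertib and the combination against TGFβ in PLC/PRF/5. With normexp they were 2 for the combination against galunisertib in SNU-449 and 1 for galunisertib in PLC/PRF/5, and HLF differed by -1.60 between TGFβ and control in SNU-449. With the percentile taken over probes above background on all arrays the count for galunisertib in PLC/PRF/5 was 1, with the floor doubled that for galunisertib in SNU-449 was 2, and with the authors' values those for the combination against TGFβ in SNU-449 and for the difference of effects were 1 each. Counts over all genes moved too. In the order given for median scaling they were 2750, 307, 2254, 905, 6521, 1428 and 1051 in the main fit. With median scaling they were 1330, 100, 484, 92, 3954, 164 and 201, and without scaling 1961, 144, 501, 36, 1010, 122 and 186. With the limits of fold and unadjusted p they were 614, 114, 184, 57, 516, 50 and 276. The causes were not tested.

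With single arrays left out, the counts ran in SNU-449 from 1 to 3 for galunisertib, 1 to 2 for the combination against TGFβ and 0 to 2 for the combination against galunisertib. In PLC/PRF/5 they ran from 2 to 3 for TGFβ, 4 to 7 for the combination against TGFβ and 0 to 3 for the combination against galunisertib, and were 1 for galunisertib whichever array was left out. Between untreated lines they ran from 5 to 7, for the difference of effects from 1 to 3, and HLF differed by -2.86 to -2.64 between TGFβ and control in SNU-449. With the replicate number as a block, TEF no longer passed for the combination against TGFβ in PLC/PRF/5 (-0.67, adjusted p = 0.0571), which left 6 genes called, and no other call of a member was lost. Dim signals limit the folds of TEF and NR1D1 and, with TGFβ in SNU-449, of HLF, whose lowest levels (-3.66, -3.26 and -3.12) lay closest to the floor.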
